A study of Mus musculus with 6 samples.

Results

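*Nfasc*, *Col28a1*, *Mbp*, *S100b*, *Sox10*, *Cdh19* and *Gfra3* are 7 genes of Schwann cells and of the contact between axon and glia. They were followed by their Ensembl identifiers among the 54232 genes counted in heart ventricle, and all 7 were among the 14133 genes that had enough reads to be tested. *Nfasc* and *Col28a1* were taken up because they were known to be lower with tributyrin in these same libraries, so their difference is given here as a description with no test. The other 5 were named as glial markers, to see whether they moved with that pair. RNA came from 6 wild-type C57BL/6J mice, all kept on a western diet (WD) for 15 weeks. Needle feeding for the 3 weeks that followed gave tributyrin, a triglyceride of butyrate, at 5 g/kg body weight to 3 of them and vehicle, which the labels call PBS, to the other 3, on alternating pairs of days. WD and the wild-type background were shared by both groups, the age of these mice is not stated in the labels, the sex of each is not stated either, and nothing ties a mouse of one group to a mouse of the other. The libraries held between 20369746 and 32734485 counts.

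Nerve fibres of the heart are wrapped by Schwann cells, most of which enclose several thin axons without myelin, while a minority build myelin around a single axon. SOX10 is the transcription factor that the Schwann lineage depends on, and myelinating cells interrupt the sheath at nodes of Ranvier, where neurofascin on glia and axon helps to hold channels and membrane contacts in place. Axons carry little RNA, since the cell bodies of most cardiac nerves lie outside the ventricle, so glial transcripts are the main trace of nerve in ventricular RNA. In a bulk sample, fewer cells of a type and less RNA per cell cannot be told apart.

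*Nfasc* (ENSMUSG00000026442) encodes neurofascin, a cell adhesion protein made in a glial and a neuronal form, which gene counts do not separate. In GENCODE M21 (GRCm38) its exons cover 14145 bases of the minus strand of chromosome 1, between 132564690 and 132741797. *Col28a1* (ENSMUSG00000068794) encodes the chain of collagen XXVIII, a matrix protein found around peripheral glia. Its exons cover 4904 bases of the minus strand of chromosome 6, between 7997808 and 8192617. *S100b* (ENSMUSG00000033208), on the plus strand of chromosome 10 from 76253853 to 76261159, encodes a calcium-binding protein that marks glia. RefSeq promoters (GRCm38.p6) were matched for 3 of the 7 genes. They are shown because the first and second belong to the genes that were lower together and the third to a glial marker that was not lower. Each is read 5′ to 3′ on the strand of the gene. *Col28a1* and *S100b* run up to the last base before the RefSeq start. *Nfasc* runs up to 81 bases before it, where an annotated exon of the gene begins. The RefSeq start of *S100b*, at 76253836, lies ahead of the GENCODE start given above. Capitals mark the SOX core motifs ACAAAG and ACAATG, searched on both strands. The *Nfasc* window is the first of 2 in the table and belongs to a start inside the gene, 34471 bases from the annotated 5′ end of the gene, and these counts do not show which start was used.
Nfasc internal promoter, chr1:132707407-132707576: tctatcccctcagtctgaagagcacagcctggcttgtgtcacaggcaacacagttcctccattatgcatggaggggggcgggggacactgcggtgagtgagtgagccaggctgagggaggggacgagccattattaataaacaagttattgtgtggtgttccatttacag
Col28a1 promoter, chr6:8192618-8192867: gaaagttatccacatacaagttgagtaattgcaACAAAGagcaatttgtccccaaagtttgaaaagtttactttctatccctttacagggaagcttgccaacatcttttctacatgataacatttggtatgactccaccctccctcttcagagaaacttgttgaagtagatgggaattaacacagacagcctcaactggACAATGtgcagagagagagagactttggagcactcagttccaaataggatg
S100b promoter, chr10:76253586-76253835: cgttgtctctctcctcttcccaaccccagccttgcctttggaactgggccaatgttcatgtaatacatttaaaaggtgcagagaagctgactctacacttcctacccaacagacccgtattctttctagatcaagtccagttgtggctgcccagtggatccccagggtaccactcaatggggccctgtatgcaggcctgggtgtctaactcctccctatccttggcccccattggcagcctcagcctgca
*Col28a1* held 1 match of each motif, and the 250 bases before the starts of *Nfasc* and *S100b* held 0 of either. Of 32851 promoter windows of this length, 16.5% held ACAAAG, 10.7% held ACAATG and 25.2% held either. The windows of *Nfasc*, *Col28a1* and *S100b* had 4, 0 and 2 CG dinucleotides, against a median of 6 over all windows.

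In the WD + Vehicle mice, the normalised read count of *Nfasc* was 30.1, 46.5 and 22.4, and in the WD + Tributyrin mice it was 7.48, 11.9 and 4.59. A normalised read count is the count divided by the size factor of its library. Every tributyrin mouse lay below every vehicle mouse. The vehicle mean was 33.01 ± 12.3 (SD, 3 mice) and the tributyrin mean 7.98 ± 3.67 (SD, 3 mice), which is 0.242 of the vehicle mean. These values rest on 107 reads in the vehicle group and 25 in the tributyrin group. The exact Poisson 95% intervals of these sums, which cover counting error only, ran from 87.7 to 129.3 reads and from 16.2 to 36.9 reads.

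*Col28a1* showed the same order with less spread among the vehicle mice. Its normalised read count was 26.0, 33.3 and 29.8 with vehicle and 6.55, 10.1 and 12.6 with tributyrin, and again the groups did not overlap. The mean was 29.7 ± 3.68 (SD, 3 mice) with vehicle and 9.74 ± 3.05 (SD, 3 mice) with tributyrin, which is 0.328 of the vehicle mean. The reads behind these means were 92 and 29, with exact Poisson 95% intervals from 74.2 to 112.8 and from 19.4 to 41.6. On the log2 scale of the edgeR fit, tributyrin over vehicle was -2.03 (standard error 0.42) for *Nfasc* and -1.62 (standard error 0.34) for *Col28a1*. These were the 7th and 15th lowest values of all genes tested, and 0.488% of all genes had a log2 fold change of -1 or less. Both genes were picked on this comparison, and both passed the filter on reads through the vehicle mice alone. *Nfasc* had 18 to 60 reads a mouse with vehicle and 4 to 13 with tributyrin, and *Col28a1* had 24 to 43 and 7 to 11. These ranks therefore carry no weight as evidence.

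The 5 other glial genes were not lower with tributyrin. *Sox10*, the lineage factor, had a normalised read count of 39.5, 32.6 and 42.2 with vehicle and 46.8, 46.6 and 28.7 with tributyrin. Its log2 fold change was 0.12 with a 95% interval from -0.48 to 0.71, and its groups overlapped. *Cdh19*, a cadherin of the Schwann lineage, had a count of 113.3, 130.3 and 132.9 with vehicle and 153.4, 151.7 and 125.0 with tributyrin. With the most reads of the 7 genes it had the narrowest interval, from -0.13 to 0.52 around 0.20, and its groups overlapped too.

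*Mbp*, which encodes a protein that compacts myelin and also gives transcripts outside myelinating cells, spread most among these 5 in the vehicle mice. Its normalised read count was 113.3, 75.2 and 54.7 with vehicle and 103.8, 116.0 and 82.6 with tributyrin, and the log2 fold change was 0.31 with an interval from -0.24 to 0.87. *S100b* was at 28.1, 26.4 and 19.9 with vehicle and at 28.99, 31.98 and 29.8 with tributyrin, with a log2 fold change of 0.28 and an interval from -0.31 to 0.86. *Gfra3*, a receptor for the GDNF family ligand artemin, was at 52.0, 47.3 and 42.2 with vehicle and at 58.9, 63.0 and 61.9 with tributyrin. Its log2 fold change was 0.37 with an interval from -0.06 to 0.81. In *S100b* and *Gfra3* every tributyrin mouse lay above every vehicle mouse, though by a small margin in *S100b*, where 28.99 stood next to 28.1.

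**Figure D1:**
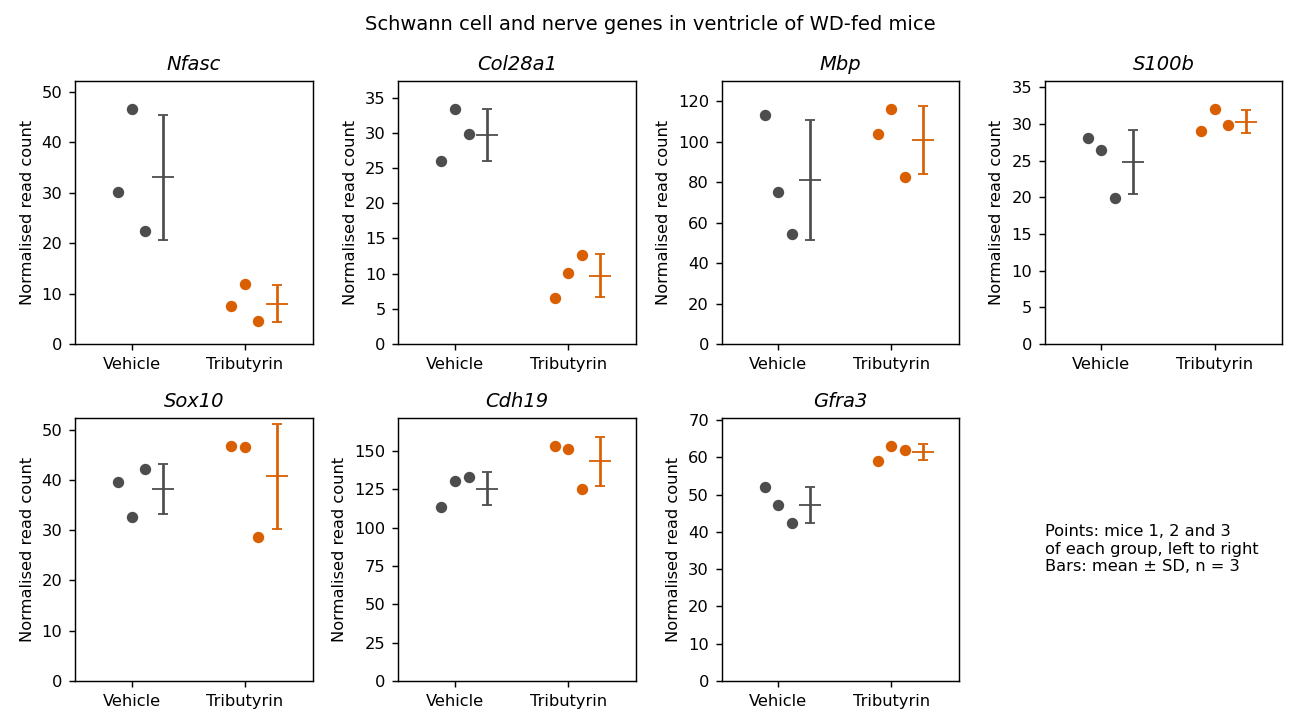
Normalised read counts (vertical axes, each from 0) of the 7 genes in 3 WD + Vehicle mice (grey) and 3 WD + Tributyrin mice (orange), with the mean and SD of each group beside the points. In *Nfasc* and *Col28a1* the tributyrin points, at 4.59 to 12.6, lie below all vehicle points, and in the other 5 genes they overlap the vehicle points or lie above them.

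In the quasi-likelihood fit of edgeR, with p-values adjusted by Benjamini-Hochberg across the 14133 genes, 0 genes passed an FDR of 10%, or 0% of those tested, and the adjusted p of *Mbp*, *S100b*, *Sox10*, *Cdh19* and *Gfra3* was 0.999 each. An unadjusted p under 0.05 was reached by 600 genes, 2.28% of all tested being lower and 1.97% higher, and 0 of these 5 genes was among them. DESeq2 called 11 genes at 10% and limma-voom 0. Groups that did not overlap were found in 4.65% of all genes with tributyrin lower and in 4.26% with tributyrin higher, beside *Nfasc* and *Col28a1* lower and *S100b* and *Gfra3* higher among the 7. The median log2 fold change of the 5 markers was 0.28, and that of all genes tested was -0.0013. The 95% interval of each of the 5 excluded a decrease as large as 1 on the log2 scale, since the lowest bound was -0.48, for *Sox10*. The intervals of the 5 also reached up to between 0.52 and 0.87, so that a moderate increase was not excluded with 3 mice a group at this depth.

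The relation of the pair to the other glial transcripts was followed within each library, where library size cancels. For each read on *Sox10* there were 0.76, 1.43 and 0.53 reads on *Nfasc* in the vehicle mice and 0.16, 0.25 and 0.16 in the tributyrin mice. For *Col28a1* the ratio was 0.66, 1.02 and 0.71 with vehicle and 0.14, 0.22 and 0.44 with tributyrin. Neither ratio overlapped between the groups. Both genes were picked for being lower with tributyrin, so these ratios and the shares given next follow in large part from that choice. How many of all genes would separate in this way was not computed. Against the summed normalised count of the 5 markers, *Nfasc* stood at 10.4% ± 3.93 (SD, 3 mice) with vehicle and 2.07% ± 0.76 (SD, 3 mice) with tributyrin, and *Col28a1* at 9.47% ± 1.72 (SD, 3 mice) and 2.66% ± 1.10 (SD, 3 mice). The summed count of the 5 ran from 292.0 to 346.1 with vehicle and from 328.1 to 409.3 with tributyrin, so that its groups overlapped.

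The 7 genes also differed in how much they varied among mice of a group. *Nfasc* had a coefficient of variation of 37.4% with vehicle and 46.0% with tributyrin, where counting error alone gives 16.7% and 34.6% at its mean number of reads. *Col28a1* varied by 12.4% and 31.3%, below the 18.1% and 32.2% that counting error gives. *Mbp* varied by 36.7% with vehicle against 10.95% from counting. *Gfra3* varied by 10.3% and 3.49%, below the 14.4% and 12.7% from counting. The mice did not keep a common order across the genes. The highest vehicle mouse was mouse 2 for *Nfasc* and *Col28a1*, mouse 1 for *Mbp*, *S100b* and *Gfra3* and mouse 3 for *Sox10* and *Cdh19*. Tributyrin mouse 3 was the lowest of its group for *Nfasc*, *Mbp*, *Sox10* and *Cdh19* and the highest for *Col28a1*.

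Per kilobase of exon, all 7 were low transcripts in this tissue. *Cdh19* was highest with vehicle, at a mean of 1.11 CPM per kilobase with mice from 0.998 to 1.18, where CPM is the count scaled to library size by TMM. It was followed by *Gfra3* at 0.896 ± 0.090 (SD, 3 mice), *S100b* at 0.633 ± 0.110, *Sox10* at 0.474 ± 0.059, *Mbp* at 0.363 ± 0.131, *Col28a1* at 0.230 ± 0.030 and *Nfasc* at 0.089 ± 0.034. In that order *S100b* overlapped *Sox10*, *Sox10* overlapped *Mbp* and *Mbp* overlapped *Col28a1* between the vehicle mice, and the other neighbours did not overlap. With tributyrin the level was 1.28 ± 0.147 for *Cdh19*, 1.17 ± 0.038 for *Gfra3*, 0.777 ± 0.040 for *S100b*, 0.508 ± 0.132 for *Sox10*, 0.453 ± 0.078 for *Mbp*, 0.076 ± 0.023 for *Col28a1* and 0.022 ± 0.0099 for *Nfasc*. The order stayed as it was with vehicle, with *Cdh19* overlapping *Gfra3* and *Sox10* overlapping *Mbp*. Length was taken over all annotated exons, which understates the level of a gene such as *Nfasc* if only its shorter transcripts are made. Of the vehicle levels of all genes tested, 1.73% lay below that of *Nfasc* and 29.6% below that of *Cdh19*.

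**Figure D2:**
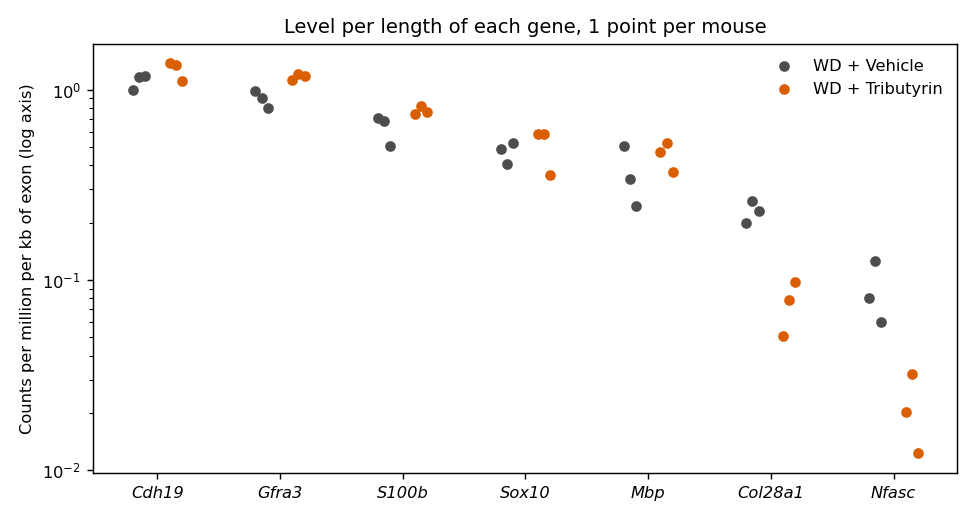
Level of each gene per length (vertical log axis, CPM per kilobase of exon), 1 point per mouse, WD + Vehicle in grey and WD + Tributyrin in orange, ordered from left to right by the mean over all mice. *Nfasc* and *Col28a1* are the lowest in both groups, and *Col28a1* with tributyrin reaches down to the level of *Nfasc* with vehicle.

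The same question was put to lists of related genes. Lists of myelin genes, of Schwann cell genes and of genes of the node and the axon contact hold 53 genes together, of which 33 had enough reads to be tested. Besides *Nfasc* and *Col28a1*, 31 were tested, 14 higher and 17 lower with tributyrin, with a median log2 fold change of -0.02 and 0 at an unadjusted p under 0.05 in either direction. The 31 include the 5 markers followed above, all higher, so this near balance rests in part on them. Of all genes tested, 7121 were lower and 7012 higher. Across these 31 the log2 fold change ran from -0.37 for *Ptprz1*, a receptor phosphatase, to 0.97 for *Gjc3*, a connexin of myelinating glia, named as the ends of the range after their values were seen.

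Of the 16 myelin genes, 8 were tested, 5 higher and 3 lower, with a median of 0.06. *Mbp* is among those higher. *Pmp22*, a membrane protein of peripheral myelin that other tissues also make, was the most abundant per length, at a log2 fold change of -0.09 (standard error 0.089). *Mal*, a membrane proteolipid, was at 0.12 (standard error 0.146) and *Cnp*, an enzyme of myelinating glia, at -0.15 (standard error 0.129). *Mag*, an adhesion protein of the myelin sheath, had 14 reads over the 6 libraries and was not tested, at 3.89 ± 2.05 (SD, 3 mice) normalised counts with vehicle and 0.914 ± 1.58 (SD, 3 mice) with tributyrin. Its groups overlapped, and it was picked out after its values were seen. *Gjb1*, *Ugt8a* and *Cldn19* had 0 reads.

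Of the 20 Schwann cell genes, 15 were tested, 7 higher and 8 lower, with a median of -0.004. Counted among them are *Col28a1*, picked for being lower, and the followed markers *Sox10*, *S100b*, *Cdh19* and *Gfra3*, all higher. *Erbb3*, the neuregulin receptor of Schwann cells, was at a log2 fold change of -0.08 (standard error 0.106), *Scn7a*, a sodium channel of non-myelinating Schwann cells, at -0.11 (standard error 0.136) and *Matn2*, a matrix protein, at -0.004 (standard error 0.101). These had more reads than the 7 genes, from 2714 to 3686 over the 6 libraries, and their 95% intervals lay within -0.41 and 0.22. Over the 6 libraries they stood at 2.70 to 3.13 CPM per kilobase, against 0.49 for *Sox10* to 1.19 for *Cdh19* among the followed markers. How much of their RNA came from Schwann cells was not tested. *Col28a1* was the lowest of this list, followed by *Ptprz1*.

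Of the 17 genes of the node and the axon contact, 10 were tested, 2 higher and 8 lower, with a median of -0.12. *Nfasc*, picked for being lower, is counted among the 8. *Cadm4*, an adhesion protein of Schwann cells that binds axons, was at a log2 fold change of 0.11 (standard error 0.085). *Ank3*, which encodes the ankyrin that binds neurofascin at nodes, was at -0.13 (standard error 0.064). In *Ank3* every tributyrin mouse lay below every vehicle mouse, from 2333 ± 20.4 (SD, 3 mice) to 2126 ± 19.7 (SD, 3 mice) normalised counts, and many cells other than nerve express it. Groups apart in this direction were found in 4.65% of all genes tested. *Cntn2*, a contactin of axon contacts that also marks the ventricular conduction system, was at -0.11 (standard error 0.351). *Nrcam*, the closest relative of neurofascin at the node and picked after its values were seen, had 52 reads, at 6.96 ± 2.68 (SD, 3 mice) with vehicle and 10.3 ± 5.36 (SD, 3 mice) with tributyrin.

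**Figure D3:**
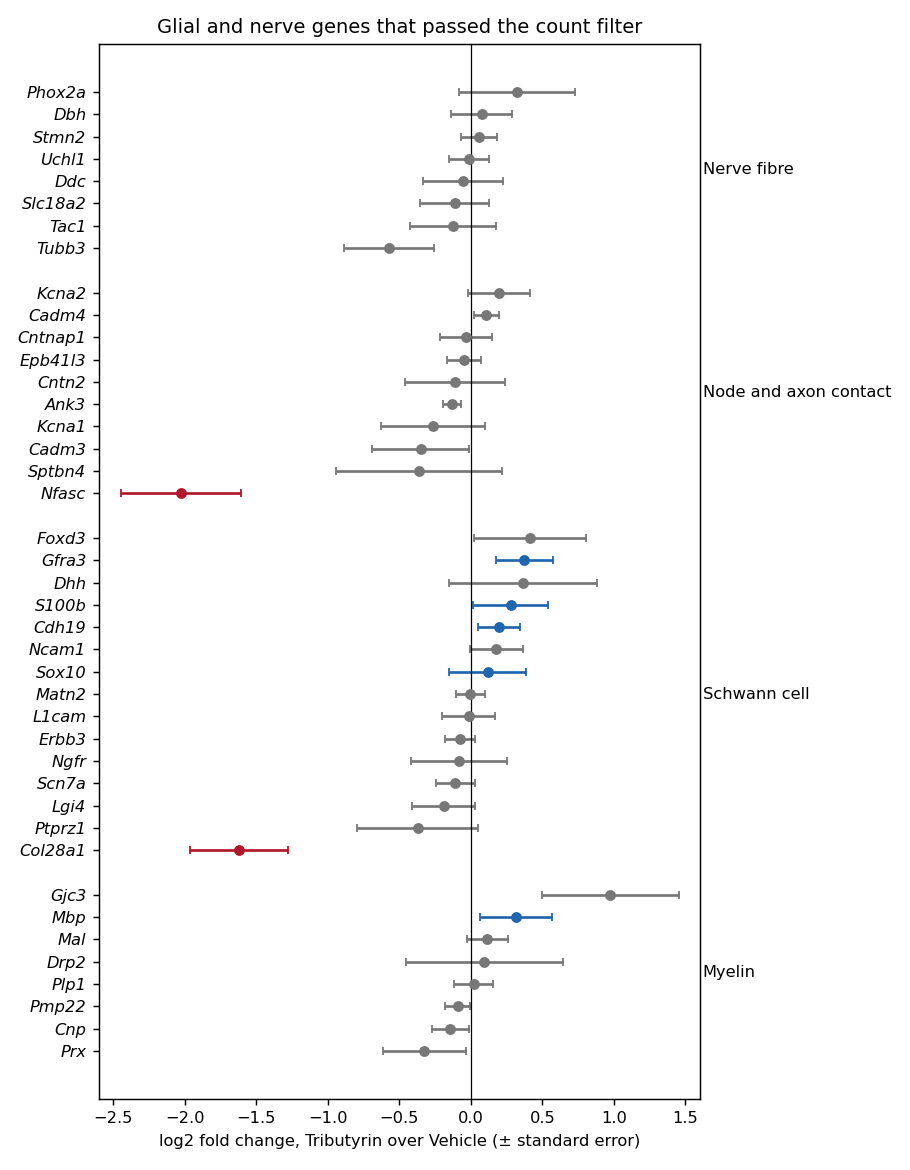
Log2 fold change of tributyrin over vehicle (horizontal axis) with its standard error from the edgeR fit, for the genes of 4 lists that passed the count filter. *Nfasc* and *Col28a1* (red) stand at -2.03 and -1.62, the 5 other followed genes (blue) lie between 0.12 and 0.37, and the remaining genes are grey.

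Transcripts of the nerve fibre itself were mostly at the limit of detection. Of 26 such genes 8 were tested, 3 higher and 5 lower, with a median log2 fold change of -0.04, and 5 had 0 reads, among them the cholinergic genes *Chat*, *Slc18a3* and *Slc5a7*. *Th*, the first enzyme of catecholamine synthesis, had 1 read in all. *Uchl1*, a ubiquitin hydrolase abundant in neurons, was at -0.01 (standard error 0.141), *Dbh*, the enzyme that makes noradrenaline, at 0.07 (standard error 0.211) and *Stmn2*, a tubulin-binding protein of growing axons, at 0.06 (standard error 0.128). *Dbh* had 894 reads against the 1 of *Th*, and whether its reads came from nerve fibres was not tested. *Tubb3*, the tubulin most used as a neuron marker, was lowest of the 8 at -0.57 (standard error 0.315), with overlapping groups of 41.0 ± 12.3 (SD, 3 mice) and 28.01 ± 7.65 (SD, 3 mice) normalised counts. *Th* and *Tubb3* were picked after their values were seen.

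Among 19 ligands and receptors that support nerve and glia, 15 were tested, 7 higher and 8 lower, with a median log2 fold change of -0.04 and 0 at an unadjusted p under 0.05. *Gfra3* stands in this list too. Its ligand *Artn* had 15 reads over the 6 libraries, while its signalling partner *Ret* was at 178.7 ± 20.8 (SD, 3 mice) with vehicle and 164.5 ± 59.6 (SD, 3 mice) with tributyrin. *Ntrk3*, the receptor for neurotrophin 3, was the one gene of the list besides *Gfra3* whose groups did not overlap, at 30.8 ± 2.10 (SD, 3 mice) with vehicle and 23.4 ± 2.61 (SD, 3 mice) with tributyrin. Among all genes tested, 4.65% had groups apart with tributyrin lower and 4.26% with tributyrin higher. *Artn*, *Ret* and *Ntrk3* were named after their values were seen.

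Atrial transcripts differed between the libraries, and their values are given beside *Nfasc* and *Col28a1*. All 5 atrial markers, *Sln*, *Myl7*, *Myl4*, *Nppa* and *Mybphl*, were lower with tributyrin, with a median log2 fold change of -1.94. An unadjusted p under 0.05 was reached by 4 of them, and 2.28% of all genes tested were lower at that p. The summed normalised count of the 5 markers was 4786, 4539 and 1414 in the vehicle mice and 815.4, 1687 and 1219 in the tributyrin mice. Vehicle mice 1 and 2 were high, and the sum of vehicle mouse 3 lay between those of tributyrin mice 2 and 3. Of that sum, 1046 counts were *Nppa*, and for *Sln*, *Myl7*, *Myl4* and *Mybphl* vehicle mouse 3 was the lowest of the 6. An atrial score, the mean log2 CPM of the 5 markers, was 4.62, 4.35 and 1.40 in the vehicle mice and 2.00, 2.88 and 2.09 in the tributyrin mice, so that vehicle mouse 3 was again the lowest. The same mouse had 22.4 normalised counts of *Nfasc* and 29.8 of *Col28a1*, above every tributyrin mouse. With the atrial score as a covariate, an alternative chosen after the data were seen, the log2 fold change was -1.67 for *Nfasc*, -1.62 for *Col28a1* and 0.68 for *Mbp*, whose unadjusted p was then under 0.05, and the median of the 5 markers was 0.47. Beyond these values, the part of atrial transcript in the difference was not tested.

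**Figure D4:**
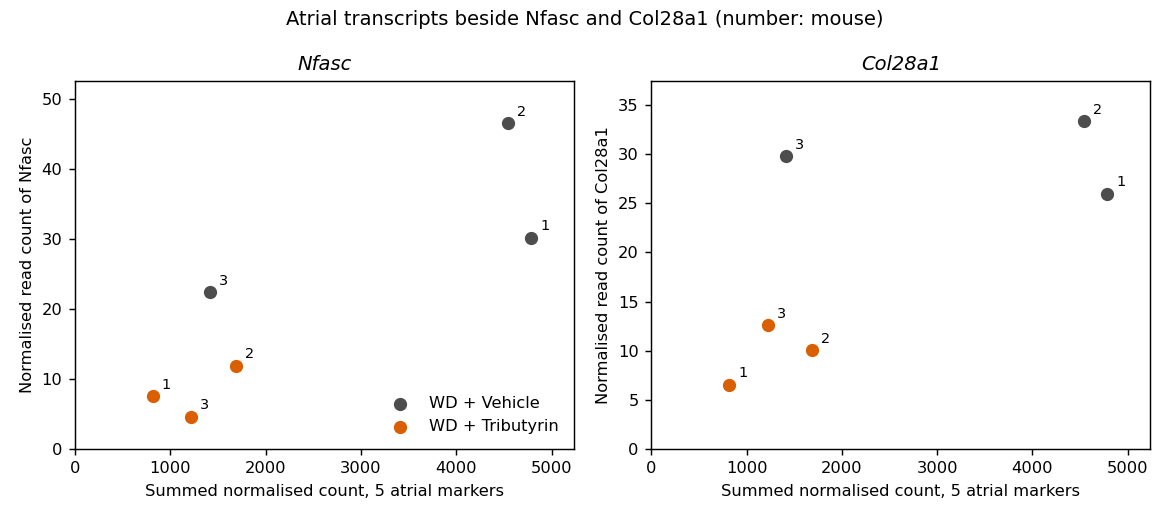
Normalised read count of *Nfasc* (left) and *Col28a1* (right) against the summed normalised count of 5 atrial markers, 1 point per mouse with its number, WD + Vehicle in grey and WD + Tributyrin in orange. Vehicle mouse 3, at 1414 atrial counts, lies between tributyrin mice 2 and 3 on the horizontal axis and above all tributyrin mice on the vertical axis; 1046 of its atrial counts are *Nppa*, and on each of the other 4 markers it is the lowest of the 6 mice.

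Markers of the other cells of the ventricle were read beside these values. The 5 ventricular cardiomyocyte genes summed to between 1188300 and 1206050 normalised counts with vehicle and between 1089210 and 1197760 with tributyrin. At an unadjusted p under 0.05, 2.28% of all genes tested were lower with tributyrin and 1.97% were higher. Of 8 fibroblast genes 6 were lower, with a median log2 fold change of -0.31. At that p stood 2 of the 8, *Col1a1* and *Lum*, both matrix genes. The summed count of the 8 ran from 23251 to 26620 with vehicle and from 20805 to 25775 with tributyrin. The part of this in the *Col28a1* values was not tested. Of the ventricular genes, *Tnni3*, a troponin subunit, was higher at 0.21 and *Actc1*, cardiac actin, lower at -0.21, each with an unadjusted p under 0.05. Below that p too were *Myh11*, smooth muscle myosin, among the mural genes, which was higher at 0.59, and *Etv1*, a transcription factor, among the conduction genes, which was higher at 0.33. The medians were 0.04 for 5 endothelial genes, 0.10 for 6 mural genes, -0.07 for 5 macrophage genes, -0.08 for 3 mesothelial genes and -0.11 for 6 conduction system genes. The 4 adipocyte genes were too low to be tested, with summed counts of 16.2 to 45.0 with vehicle and 11.5 to 64.9 with tributyrin. Of the reads, mitochondrial transcripts took from 23.6% to 26.5% with vehicle and from 25.9% to 28.8% with tributyrin.

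The genes around *Nfasc* and *Col28a1* did not share the size of their difference. Within 500 kb of *Nfasc*, 16 other genes were tested, of which 12 were lower with tributyrin. Log2 fold changes of the 16 ran from -0.19 to 0.30 with a median of -0.07, and 0 had an unadjusted p under 0.05. *Cntn2*, whose protein also takes part in axon contacts, is one of them. Within 500 kb of *Col28a1*, 9 were tested and 4 were lower, from -0.23 to 0.25 with a median of 0.01, and 0 had an unadjusted p under 0.05. *Gm10538*, the only gene annotated opposite *Nfasc*, had 0 reads, and no annotated gene overlaps *Col28a1*. *S100b* is overlapped on the opposite strand by *Dip2a*, with 0 bases shared between their exons.

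Likeness of pattern between genes was measured as the mean absolute difference between log2 CPM profiles over the 6 libraries, each centred on its own mean, against 14132 other genes. Closest to *Nfasc* were *Gm15816* at 0.37, *Rn7sk*, a small nuclear RNA, at 0.38 and *Tlr6*, a Toll-like receptor, at 0.40. *Nfasc* and *Col28a1* were picked for their difference between the groups, which weighs heavily in this measure, so their nearness to each other and their distance from the 5 markers follow in large part from that choice. *Col28a1* was at rank 12 with 0.45, and the 5 markers lay between rank 9972 for *Sox10* and rank 13616 for *Gfra3*. Closest to *Col28a1* were *Ccdc68* at 0.14, *2310069B03Rik* at 0.18 and *Syndig1*, a protein of synapses, at 0.19, with *Nfasc* at rank 139 and the 5 markers between rank 10666 and rank 13609. *Syndig1* was at 17.1 normalised counts with vehicle and 4.68 with tributyrin, and *Ccdc68* at 26.5 and 10.96.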

How the data were processed

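Ventricle RNA of 3 WD + Tributyrin and 3 WD + Vehicle mice was sequenced with a stranded mRNA kit as single-end reads. Per the study's methods, adapters and low-quality or rRNA reads were taken out before alignment (STAR) and counting per gene (htseq-count). The deposited values are these counts, made by the authors and not normalized. The submitters' processing notes name cutadapt 1.13, HTSeq 0.6.1p1, DESeq2 1.14.1 and mm10. Which annotation release and strand setting the counting used is not given in the sources used here. Names, exons and positions came from GENCODE M21 (GRCm38), which matched 54165 of 54232 identifiers.

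Counts were compared in R 4.3.3 with edgeR 4.0.16 (quasi-likelihood test, TMM scaling, filterByExpr with minimum count 10 and minimum total 15, Benjamini-Hochberg adjustment over all genes tested, FDR 10%). Normalised read counts are counts divided by DESeq2 size factors. Standard errors and 95% intervals of log2 fold changes were derived from edgeR's F statistic. Depth differed up to 32734485 against 20369746 counts, and the model weighs libraries by depth. No pair of libraries agreed within sampling noise (chi-square per degree of freedom at least 7.4). Nothing in the labels says more of the replicates than that they are separate mice of a group.

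The alternatives were other scalings, other filters, DESeq2 1.42.0, limma-voom (limma 3.58.1), a block for the replicate number, and fits that omit each mouse in turn. The steps were tested on simulated data. The 7 genes and all lists were chosen with earlier results of these data known. Genes named from the lists were those at an unadjusted p under 0.05 and, for the myelin, Schwann cell, node and nerve fibre lists, the 3 most abundant per length. Others are marked where they appear, save that the atrial markers are named as a list.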

Additional observations from a re-analysis of the deposited data

How the results depend on the processing

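Genes past the 10% FDR numbered 0 with RLE size factors, library size alone, a filter of CPM of at least 1 in 3 libraries and limma-voom, but 167 with no filter on low counts and 11 by DESeq2, and with each mouse left out it ran from 0 to 3. What sets these counts was not tested. A block for the replicate number gave 2 genes. Deviations of mice that share a number correlated at 0.21, 0.04 and 0.01, which does not pair them, and no other call changed with the block. The median of the 5 markers was between 0.20 and 0.37 under the scalings, filters, tools, block and omitted mice and was 0.47 with the atrial score as a covariate. *Mbp*, *S100b*, *Sox10*, *Cdh19* and *Gfra3* were positive in every alternative run, *Sox10* down to 0.007 with a mouse left out, and their adjusted p lay between 0.66 and 1. *Mbp* moved most, to 0.63 without vehicle mouse 1, with an unadjusted p under 0.05, and to 0.12 without vehicle mouse 3. The median of the Schwann cell list ran from -0.13 without tributyrin mouse 2 to 0.13 without vehicle mouse 1. *Nfasc* stayed between -2.43 and -1.67 and *Col28a1* between -1.82 and -1.39 in the alternatives that tested them. The filter of CPM of at least 1 in 3 libraries left both out. With 132 and 121 reads over the 6 libraries, *Nfasc* and *Col28a1* carry a large counting error, and *Nfasc* varied between mice beyond it. Smaller differences in *S100b*, *Sox10* or the myelin genes under 50 reads were not detectable at this depth.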
